A study of Homo sapiens with 9 samples.

Results

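The EGF family ligands are growth factors that bind the ERBB receptors, and the ADAM sheddases are the membrane proteases that release them from the cell surface. The members were chosen by symbol, as every probe set that the platform annotation assigns to exactly 1 of the 9 symbols HBEGF, EREG, TGFA, AREG, EPGN, BTC, NRG1, ADAM10 and ADAM17. That gave 23 of the 54675 probe sets on the array, for 7 of the 9 genes. No probe set carried AREG or EPGN as its single gene in the annotation, so these ligands have no values here. Of the 23 probe sets, 15 passed a filter on low values, at least 1 for each of the 7 genes, and each brightest probe set would also have passed on the arrays of any 1 group alone.

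The arrays measured MCF10A, an immortalized human breast epithelial line that is not tumorigenic and that is normally grown with added EGF. The study compared 3 groups of 3 arrays. The EGF group carried the empty pBabe retrovirus and received EGF at 50 ng/ml for 2 h before harvest. The ERBB2 group carried a pBabe retrovirus for the receptor ERBB2 and received no EGF, and the vector group carried the empty virus and received no EGF. All 3 groups were in medium with 2% horse serum and no maintenance EGF after infection. The labels call the replicates biological without saying whether they came from separate infections, so each p-value reflects only how much these arrays varied, which may be technical. In bulk RNA, fewer cells with a transcript and less of it per cell cannot be told apart.

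EGF family ligands are made as membrane-anchored precursors, and shedding by ADAM17 or ADAM10 releases the soluble growth factor. HB-EGF, epiregulin and betacellulin bind both EGFR and ERBB4, TGF-alpha binds EGFR, and neuregulin 1 binds ERBB3 and ERBB4, whereas ERBB2 has no known ligand of its own. In epithelial cells, ligand transcripts are known to respond to the receptors that the ligands activate, which makes an autocrine loop.

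Signals are the authors' linear MAS5 intensities. Changes were computed on log2(signal + 16), which understates the change of dim probe sets, and a probe set was called at a limma Benjamini-Hochberg adjusted p under 0.05 over all 32768 probe sets tested. A gene is represented by its brightest probe set, and signals are not compared between probe sets. The shares given for all probe sets count each probe set past the filter, dim ones included. Counts of genes by their brightest probe sets are thus not like for like with them. The median signal of an array was 15.6 to 16.9 with EGF, 17.9 to 20.1 for the ERBB2 label and 19.9 to 20.2 with vector. The transcript introduced in the ERBB2 group did not settle its label. The brightest ERBB2 probe set read 98.8 ± 23.1 (SD, n = 3) on the arrays labelled ERBB2 and 174.0 ± 48.0 on vector arrays, while a dimmer one read 35.6 ± 2.51 against 12.6 ± 8.78. The ACTB 5'/3' control ratio was 0.378 to 0.505 with EGF, 0.701 to 0.796 for the ERBB2 label and 0.325 to 0.436 with vector. The 18S rRNA control at the 3' end gave at least 11926 on arrays labelled ERBB2 and at most 3369 with EGF and 4570 on vector arrays. These control values moved with the ERBB2 group, and their part in its results was not tested. Of 8 epithelial markers, not all of them basal, 5 had a single-gene probe set, all past the filter. On arrays labelled ERBB2, 4 of the 5 were called lower than with vector and 1 higher, against 21% and 17.7% of all probe sets. KRT5 changed by -0.93, ITGB4 by -0.87 and CDH1 by -0.43 on the log2 scale. KRT14, a basal keratin, averaged 149 on arrays labelled ERBB2 and 2640 on vector arrays (-4.00, adjusted p = 9.072e-17), while EPCAM, an epithelial adhesion molecule, averaged 2357 against 1063 (1.13, adjusted p = 5.533e-09). With EGF, too, 4 of the 5 markers were called lower than with vector and 1 higher, against 15.9% and 12.9% of all probe sets. With EGF KRT5 changed by -0.43, KRT14 by -0.57, ITGB4 by -0.47, CDH1 by -0.26 and EPCAM by 0.41. The 5 markers had a summed signal of 13238 to 15918 with EGF, 10192 to 11115 on arrays labelled ERBB2 and 17576 to 20075 on vector arrays. Of markers of other cell types, 3 blood genes summed to at most 68.0 and 2 adipocyte genes to at most 22.5 on any array. The sum of 3 endothelial genes was 37.2 to 55.0 with EGF, 95.4 to 111 on arrays labelled ERBB2 and 33.8 to 50.2 on vector arrays. Of these, PECAM1 averaged 90.1 on arrays labelled ERBB2 and 29.0 on vector arrays (1.27, adjusted p = 7.803e-05), and VWF and CDH5 did not pass the filter. The part of these marker changes in the results was not tested. Of 6 fibroblast markers 3 passed the filter, and decorin (DCN) made up most of their sum of 507 to 563 with EGF, 395 to 559 on arrays labelled ERBB2 and 1366 to 1506 on vector arrays.

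The first comparison asked which ligand and sheddase transcripts EGF changed within 2 h in vector cells. HBEGF and EREG rose more than 4-fold on the log scale used and TGFA by less than 2-fold, while BTC, NRG1, ADAM10 and ADAM17 were not called by their brightest probe sets. Thus 3 of 7 measured genes were called higher and 0 lower, against 12.9% of all probe sets called higher and 15.9% called lower (28.8% in either direction). Groups did not overlap for the same 3 genes, all above vector, against 42.2% of all probe sets (17.2% above and 25% below). The median log2 change of the 7 genes was 0.46, and that of all probe sets was -0.11. By probe set, 6 of the 15 tested were called higher. The check genes of the response rose, DUSP6, a phosphatase that limits ERK, by 6.83 and EGR1, an early response transcription factor, by 3.77 on the log2 scale. DUSP6 averaged 9.42 on vector arrays and would not pass the filter on these alone. The size of its change is thus uncertain, and it ranged from 5.28 to 8.53 over the alternatives.

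HBEGF encodes heparin-binding EGF-like growth factor, the ligand that also serves as the diphtheria toxin receptor. Its brightest probe set (203821_at) read 212, 234 and 206 with EGF, 50.3, 49.0 and 57.6 on arrays labelled ERBB2, and 26.0, 47.9 and 28.5 on vector arrays. Every EGF array stood far above every other array. The log2 change with EGF was 2.24 ± 0.18 (SE, limma adjusted p = 8.862e-09). A second HBEGF probe set (38037_at) read 106, 110.3 and 109 with EGF, 21.7, 41.1 and 19.5 on arrays labelled ERBB2, and 29.7, 2.22 and 10.4 on vector arrays. It rose with EGF by 2.15 ± 0.28 (adjusted p = 6.027e-06), close to the change of the brightest one. The other 2 HBEGF probe sets did not pass the filter, with group means of at most 7.09.

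EREG encodes epiregulin. Its tested probe set (205767_at) read 169.6, 161 and 146 with EGF, 22.4, 25.1 and 22.9 on arrays labelled ERBB2, and 26.5, 19.8 and 24.9 on vector arrays. The EGF arrays stood apart, and the other two groups overlapped. The log2 change with EGF was 2.14 ± 0.18 (adjusted p = 2.339e-08), which is within its error of that of HBEGF. A dimmer EREG probe set (1569583_at) did not pass the filter and had means of 11.8 with EGF, 6.83 on arrays labelled ERBB2 and 5.05 on vector arrays.

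TGFA encodes transforming growth factor alpha, an EGFR ligand. Its brightest probe set (205016_at) read 331, 287 and 287 with EGF, 165, 118 and 139 on arrays labelled ERBB2, and 156, 172 and 153 on vector arrays. The EGF arrays were again above all others, by a smaller factor. The log2 change with EGF was 0.85 ± 0.13 (adjusted p = 4.424e-05). The call rests on this probe set. A second one (211258_s_at) read 19.1, 16.02 and 24.1 with EGF against 31.9, 16.9 and 26.9 on vector arrays, overlapping and with the other sign (-0.19, adjusted p = 0.6292). The remaining one (205015_s_at) differed by 0.46 with a 95% interval of -0.28 to 1.199 (adjusted p = 0.3764), and averaging the 3 probe sets gave a TGFA change of 0.37 (adjusted p = 0.1761).

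**Figure D1:**
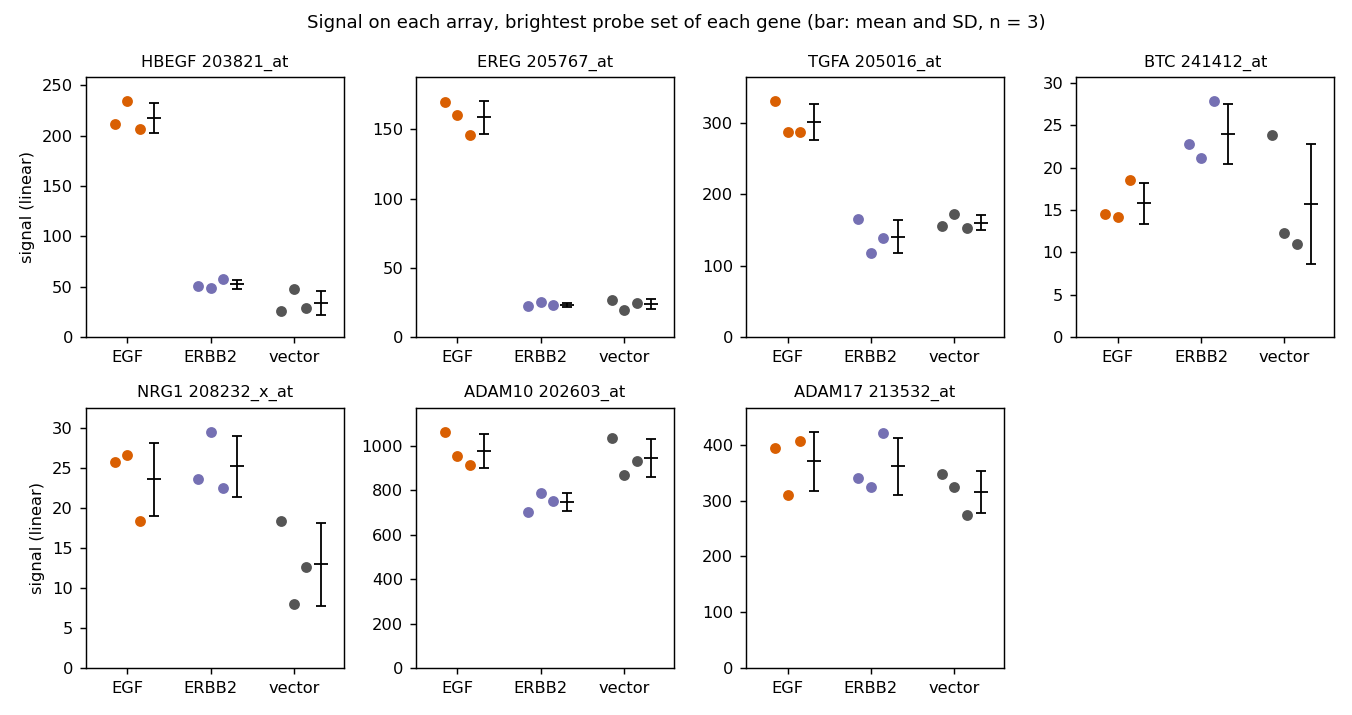
Signal (linear scale, from 0) of the brightest probe set of each of the 7 measured genes, with 1 point per array for the EGF, ERBB2 and vector groups and a bar for the mean and SD (n = 3). HBEGF, EREG and TGFA are highest on all 3 EGF arrays, HBEGF between 206 and 234. The BTC, NRG1, ADAM10 and ADAM17 groups overlap between EGF and vector arrays.

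The upstream sequences of the ligand genes that rose are shown so that they can be read side by side. They are the 250 bases before the RefSeq gene start (build GRCh38.p14), 5′ to 3′ on the gene's strand. EREG lies at chr4:74364895-74365144 on the plus strand, HBEGF at chr5:140346604-140346853 and TGFA at chr2:70553827-70554076, both on the minus strand. RefSeq gives TGFA a second start, whose window at chr2:70553447-70553696 has a GC content of 64%, holds none of the words searched and is not printed. Capitals mark the TATA word (TATAAA) and, as a separate motif, the CCAAT word. Both were searched on both strands and were chosen after the sequences had been read.
EREG: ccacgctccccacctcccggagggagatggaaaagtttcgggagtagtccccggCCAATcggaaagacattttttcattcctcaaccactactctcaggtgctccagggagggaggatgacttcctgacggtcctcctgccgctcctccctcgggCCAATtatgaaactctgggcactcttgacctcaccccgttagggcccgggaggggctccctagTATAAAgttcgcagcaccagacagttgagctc
HBEGF: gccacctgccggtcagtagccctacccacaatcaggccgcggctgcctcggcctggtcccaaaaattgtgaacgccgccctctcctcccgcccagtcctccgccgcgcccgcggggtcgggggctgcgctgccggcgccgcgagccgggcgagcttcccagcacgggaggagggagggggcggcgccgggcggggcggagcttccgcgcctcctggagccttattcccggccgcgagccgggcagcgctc
TGFA: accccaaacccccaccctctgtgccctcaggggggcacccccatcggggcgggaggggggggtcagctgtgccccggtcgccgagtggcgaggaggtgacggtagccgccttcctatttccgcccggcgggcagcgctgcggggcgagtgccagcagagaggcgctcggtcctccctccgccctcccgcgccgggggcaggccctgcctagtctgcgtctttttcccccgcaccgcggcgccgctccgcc
The EREG sequence holds 1 TATA word, which begins at position -32 from the start, and 2 CCAAT words, and its GC content is 58%. The HBEGF and TGFA sequences hold none of these words and have GC contents of 76.4% and 75.6%. Of 35116 upstream sequences of this length, 10.7% hold the TATA word and 32% hold the CCAAT word. Words for AP-1 (TGANTCA, in 6.57% of all such sequences), CRE (TGACGTCA, in 1.65%), EGR (GCGTGGGCG, in 0.72%) and ETS (CCGGAAGT, in 3.42%) were also searched on both strands, and none is in these windows. EREG is flanked on chromosome 4 by EPGN and AREG, and BTC follows AREG, with no other protein-coding gene between these 4 ligand genes in RefSeq. EPGN and AREG also hold 1 TATA word each, at -29. EPGN holds 1 CCAAT word, at -63, and AREG 1 CRE word, at -65, whereas BTC holds none of these. HBEGF lies on chromosome 5 and TGFA on chromosome 2, so the ligand transcripts that rose are not from 1 locus.

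BTC encodes betacellulin, and its signals were low throughout. The brighter probe set (241412_at) read 14.5, 14.2 and 18.6 with EGF, 22.8, 21.2 and 27.9 on arrays labelled ERBB2, and 23.8, 12.3 and 10.97 on vector arrays. The groups compared with vector overlapped, and the change with EGF was 0.02 with a 95% interval of -0.50 to 0.55 (adjusted p = 0.961). The other BTC probe set (207326_at) differed by 0.18 (adjusted p = 0.7075). BTC lies in the same chromosome 4 cluster as EREG, which had a called rise. The difference between these changes was not tested.

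NRG1 encodes neuregulin 1, whose many transcripts differ in their ends. Of its 6 probe sets 1 passed the filter (208232_x_at), with 25.8, 26.7 and 18.4 with EGF, 23.6, 29.6 and 22.5 on arrays labelled ERBB2, and 18.4, 8.01 and 12.6 on vector arrays. The EGF and vector groups met at 18.4, and the change with EGF was 0.46 with an interval of -0.05 to 0.97 (adjusted p = 0.1815). Another one below the filter (206343_s_at) read 32.6, 25.5 and 19.3 with EGF, 1.87, 11.8 and 5.36 on arrays labelled ERBB2, and 1.70, 0.450 and 2.09 on vector arrays. It was not tested and is described in the closing section. The other 4 NRG1 probe sets had group means of at most 15.3.

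ADAM10 encodes the sheddase known for releasing betacellulin and EGF, and its probe sets did not move together. The brightest (202603_at) read 1065, 954 and 916 with EGF, 704, 787 and 752 on arrays labelled ERBB2, and 1038, 869.7 and 933 on vector arrays. The EGF and vector arrays overlapped, with a change of 0.05 and a 95% interval of -0.14 to 0.23 (adjusted p = 0.7485). A dimmer one (214895_s_at) read 138, 164 and 170.3 with EGF, 134, 131 and 131 on arrays labelled ERBB2, and 106, 110.1 and 94.7 on vector arrays. It rose with EGF by 0.53 ± 0.13 (adjusted p = 0.004684), with no overlap. The remaining one (202604_x_at) differed by -0.19 with an interval of -0.51 to 0.13 (adjusted p = 0.3992). Of the 3 ADAM10 probe sets, only 214895_s_at was thus called with EGF.

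ADAM17 encodes the sheddase known for releasing HB-EGF, epiregulin, TGF-alpha and amphiregulin. Its brightest probe set (213532_at) read 394, 309.7 and 408 with EGF, 340.1, 325 and 420.5 on arrays labelled ERBB2, and 347, 324 and 275 on vector arrays. The 3 groups overlapped, and the change with EGF was 0.22 with an interval of -0.05 to 0.48 (adjusted p = 0.2188). A second one (205745_x_at) read 163, 145 and 161 with EGF, 141, 110.0 and 131 on arrays labelled ERBB2, and 113, 125 and 94.5 on vector arrays. It rose by 0.44 ± 0.14 with EGF (adjusted p = 0.02297), and this was no longer called when vector replicate 3 was left out (0.35, adjusted p = 0.1148), nor without EGF replicate 1 (0.42, adjusted p = 0.07237) or EGF replicate 3 (0.42, adjusted p = 0.07657). The last ADAM17 probe set (205746_s_at) ranged from 43.6 to 119.7 with EGF and from 39.99 to 59.3 on vector arrays and was not called (0.35, adjusted p = 0.426).

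The sheddase readings depend on how arrays are scaled. With array medians made equal, the median log2 change of all probe sets with EGF moved to 0.11, and the share of rises among all calls was 78%, against 44.8% on the authors' scale. The brightest probe sets of both sheddases were then called higher with EGF, ADAM10 at 0.34 (adjusted p = 0.01146) and ADAM17 at 0.51 (adjusted p = 0.0047), so that 5 of 7 genes were called. With quantile normalization neither was called. HBEGF, EREG and TGFA were called under all 3 scalings.

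**Figure D2:**
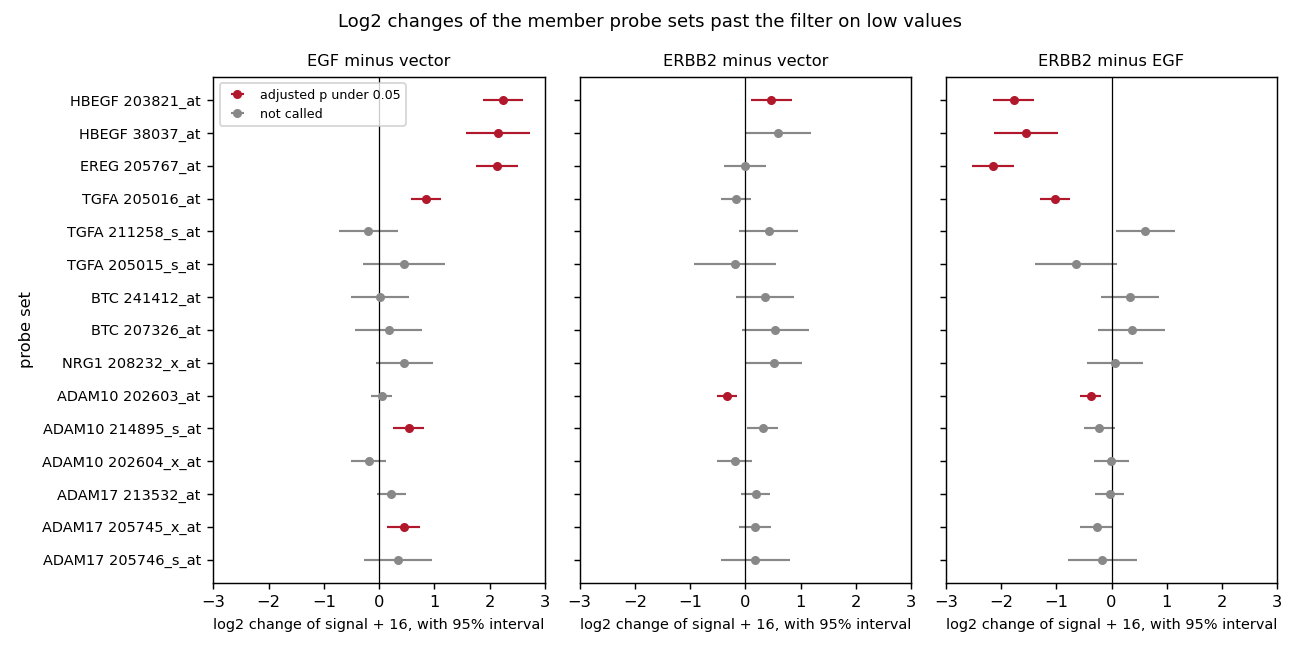
Log2 change of signal + 16 (horizontal axis) with its 95% interval for the 15 member probe sets past the filter, in 3 panels for EGF minus vector, ERBB2 minus vector and ERBB2 minus EGF, with called changes in red. Both HBEGF probe sets and EREG sit near 2 in the first panel, and among the ligands only HBEGF 203821_at is called in the second.

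The second comparison asked whether the ERBB2 retrovirus, without added EGF, went with other ligand or sheddase levels than the empty virus. The ligands that rose with EGF were near their vector levels on the arrays labelled ERBB2, with a small rise of HBEGF, and ADAM10 was slightly lower by its brightest probe set. Of the 7 genes 1 was called higher and 1 lower, against 17.7% of all probe sets called higher and 21% called lower (38.7% in either direction). Groups did not overlap for HBEGF and NRG1, above vector, and for ADAM10, below it, against 47% of all probe sets (21.2% above and 25.9% below). The median change of the 7 genes was 0.19, and that of all probe sets was -0.07. By probe set, 1 of the 15 tested was called higher and 1 lower. The check genes DUSP6 and EGR1 rose here too, by 5.29 and 2.67, with DUSP6 at 3.79 to 6.98 over the alternatives.

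HBEGF rose by 0.47 ± 0.18 (SE, adjusted p = 0.04143) on the arrays labelled ERBB2, where the lowest array at 49.0 stood just above vector replicate 2 at 47.9. Of 20 alternatives, 12 ended this call, and the adjusted p ranged from 0.005653 to 0.1545. Among the 12 were leaving out vector replicate 1 (0.36, adjusted p = 0.1545) or 3 (0.40, adjusted p = 0.1277), any ERBB2 array (0.41 to 0.50, with adjusted p = 0.1149 at the highest) or any EGF array. The second HBEGF probe set differed by 0.60 with overlapping groups (adjusted p = 0.09827). EREG differed by -0.01 with an interval of -0.39 to 0.37 (adjusted p = 0.9823), and TGFA by -0.18 with an interval of -0.45 to 0.10 (adjusted p = 0.3145). These intervals, of 1 probe set per gene, leave out changes of the size seen with EGF by the same probe sets. The TGFA probe set 211258_s_at differed by 0.42 with an interval of -0.12 to 0.96 (adjusted p = 0.2154). That interval includes the change of the brightest TGFA probe set with EGF. The TGFA probe set 205015_s_at differed by -0.18 with an interval of -0.92 to 0.56 (adjusted p = 0.7329). The dim ligands were not called either: BTC differed by 0.35 (adjusted p = 0.297) and NRG1 by 0.52 (adjusted p = 0.1046), and for NRG1 the ERBB2 and vector arrays did not overlap. Nor did they for the other BTC probe set (207326_at), which differed by 0.54 (adjusted p = 0.153). That probe set would pass the filter on the arrays labelled ERBB2 alone, but not on the vector arrays alone. NRG1 was called without a variance trend (adjusted p = 0.03143).

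ADAM10 fell by 0.33 ± 0.09 on the log2 scale by its brightest probe set (adjusted p = 0.005586), with arrays labelled ERBB2 at 704 to 787 and vector arrays at 869.7 to 1038. The call ended with equal array medians (-0.24, adjusted p = 0.06259), without a variance trend (adjusted p = 0.0552) and with the mean of the 3 probe sets (-0.07, adjusted p = 0.6563). The 214895_s_at probe set had the other sign, at 0.31 (adjusted p = 0.07359), and was called higher with quantile normalization (adjusted p = 0.04199) and with equal medians (adjusted p = 0.0443). For ADAM17 the brightest probe set differed by 0.19 with an interval of -0.08 to 0.45 (adjusted p = 0.2682), and neither of its other probe sets was called.

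The third comparison set the arrays labelled ERBB2 directly against the EGF arrays, which also differ in the length of stimulation, so the kind and the duration of the signal cannot be told apart. By their brightest probe sets, transcripts of HBEGF, EREG and TGFA were lower on the arrays labelled ERBB2. EREG differed by -2.14 ± 0.18 (adjusted p = 3.269e-08), HBEGF by -1.77 ± 0.18 (adjusted p = 3.164e-07) and TGFA by -1.03 ± 0.13 (adjusted p = 6.405e-06). The second HBEGF probe set differed by -1.55 (adjusted p = 0.0003122). The TGFA probe set 211258_s_at had the other sign, at 0.61 with an interval of 0.08 to 1.15 (adjusted p = 0.0927). All of its arrays labelled ERBB2 stood above its EGF arrays. The TGFA probe set 205015_s_at was at -0.64 (adjusted p = 0.2206). With ADAM10 at -0.38 ± 0.09 (adjusted p = 0.003612), 4 of 7 genes were called lower and 0 higher, against 12.2% of all probe sets called lower and 11.6% called higher (23.8% in either direction). Groups did not overlap for the same 4 genes and, above EGF, for BTC, against 37.9% of all probe sets (19.9% above and 18% below). By probe set, 5 of the 15 tested were called lower and 0 higher. The ADAM10 call ended without a variance trend (adjusted p = 0.05446) and with the mean of its probe sets (-0.20, adjusted p = 0.2042), and so did that of TGFA with the mean of its probe sets (-0.35, adjusted p = 0.2259). BTC (0.33, adjusted p = 0.3943), NRG1 (0.06, adjusted p = 0.8984) and ADAM17 (-0.03, adjusted p = 0.8969) were not called, and their intervals spanned 0. This comparison shares its arrays with the others and is no independent repeat of them.

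**Figure D3:**
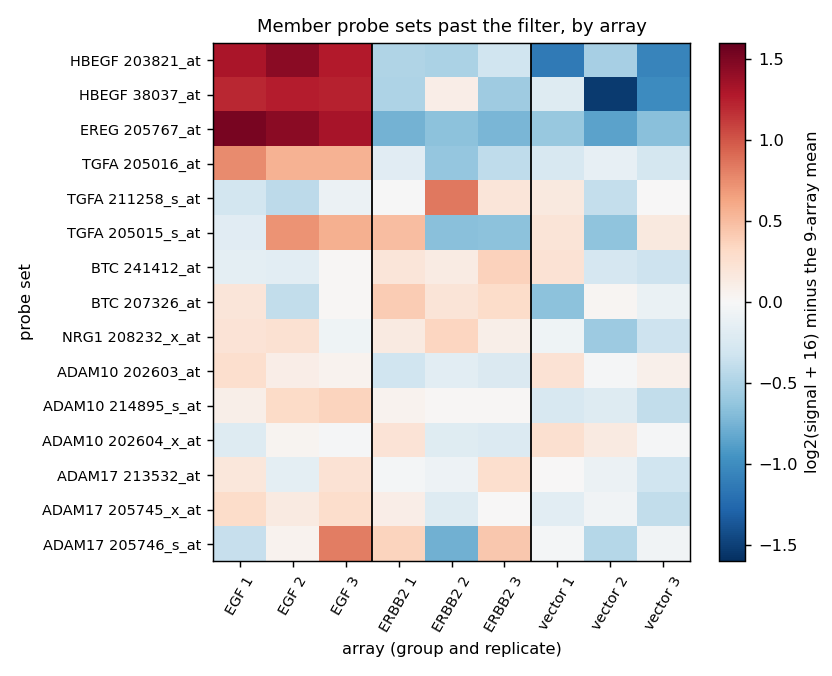
Log2(signal + 16) minus the 9-array mean (colour) for the 15 member probe sets past the filter in rows and the 9 arrays in columns, grouped as EGF, ERBB2 and vector. The HBEGF and EREG rows are red on all 3 EGF arrays, and rows of the same gene differ in colour for TGFA and ADAM10.

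Likeness to other genes was measured as the root mean square difference of log2 values over the 9 arrays, each centred on its own mean. HBEGF and EREG differed from each other by 0.31, and each differed from TGFA by about 0.6 (0.596 and 0.595). The gene most like both HBEGF (0.24) and EREG (0.23) was NT5E, the ecto-5'-nucleotidase CD73, which changed by 2.01 with EGF and 0.35 on arrays labelled ERBB2 by the probe set nearest to HBEGF. Next to HBEGF were CAMK2N1 (0.25), the prolyl hydroxylase EGLN3 (0.28), hexokinase HK2 (0.29) and PAQR5 (0.29). Next to EREG were PAQR5 (0.27), DEPP1 (0.28), SLITRK6 (0.32) and the hyaluronan synthase HAS3 (0.32). TGFA was nearest to RIPOR1 (0.10), TINF2 (0.11), TBC1D4 (0.13), RALB (0.13) and SLC25A37 (0.14). The brightest ADAM10 probe set, which changed little, was nearest to ARFGEF2 (0.06), DR1 (0.06), ZNF7 (0.07), TAX1BP1 (0.07) and KTN1 (0.07). These are descriptions of 9 arrays in 3 groups.

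Sheddases depend on partners that carry, process or inhibit them, and 18 such genes were listed. Of the 18 listed regulators 16 were measured past the filter. With EGF 3 were called higher and 5 lower, and on the arrays labelled ERBB2 5 were higher and 6 lower than with vector. Of all probe sets 12.9% were called higher and 15.9% lower with EGF, and 17.7% and 21% on arrays labelled ERBB2, so calls are common outside the list too. RHBDF2 encodes iRhom2, which carries ADAM17 to the cell surface. It read 169, 136 and 107 with EGF, 122, 89.4 and 75.2 on arrays labelled ERBB2, and 36.9, 64.2 and 72.6 on vector arrays. The lowest EGF and ERBB2 arrays were both above the highest vector array. It rose by 1.07 ± 0.21 with EGF (adjusted p = 0.000573) and by 0.61 on arrays labelled ERBB2 (adjusted p = 0.02574). That second call ended without vector replicate 1 (0.38, adjusted p = 0.1607) or ERBB2 replicate 1 (0.44, adjusted p = 0.137), and also with no filter or no variance trend. FRMD8, a protein that binds and stabilizes iRhoms, read 342, 391 and 415 with EGF, 162, 201 and 219.9 on arrays labelled ERBB2, and 180.2, 185 and 169.9 on vector arrays. It rose with EGF by 1.03 ± 0.12 (adjusted p = 2.33e-06), differed by 0.10 on arrays labelled ERBB2 (adjusted p = 0.5499), and was lower on arrays labelled ERBB2 than with EGF (-0.93, adjusted p = 1.202e-05). Its 2 dimmer probe sets past the filter were not called with EGF, and 1 of them had the other sign.

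TIMP3, a matrix-bound inhibitor of ADAM17, had the largest change on the regulator list in both comparisons of the arrays labelled ERBB2. It read 679.8, 580.3 and 571 with EGF, 64.3, 88.9 and 81.8 on arrays labelled ERBB2, and 964, 991 and 983 on vector arrays. No 2 groups overlapped. The change was -3.41 ± 0.11 on arrays labelled ERBB2 (adjusted p = 8.804e-15) and -0.67 ± 0.11 with EGF (adjusted p = 0.0001058). All 3 further TIMP3 probe sets were also called lower on arrays labelled ERBB2. TIMP2, an inhibitor of matrix metalloproteinases, changed by -1.28 there and by -0.74 with EGF.

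The TspanC8 tetraspanins bind ADAM10 and direct where it goes. TSPAN5 read 66.6, 71.5 and 64.5 with EGF, 146, 114 and 95.8 on arrays labelled ERBB2, and 30.1, 34.4 and 46.5 on vector arrays. It rose by 1.34 ± 0.18 on arrays labelled ERBB2 (adjusted p = 6.085e-06) and by 0.67 with EGF (adjusted p = 0.009014), and both of its further probe sets were called higher on arrays labelled ERBB2. TSPAN14 changed by -0.87 with EGF (adjusted p = 0.0006025) and by -0.71 on arrays labelled ERBB2 (adjusted p = 0.002241). TSPAN10 averaged 5.96 on arrays labelled ERBB2 and 34.4 on vector arrays and changed by -1.19 on arrays labelled ERBB2 (adjusted p = 0.002463). Its call with EGF (-0.83, adjusted p = 0.0366) ended under 9 of 18 alternatives, including quantile normalization and leaving out vector replicate 1, 2 or 3 or EGF replicate 1 or 3 (-0.93 to -0.60, with adjusted p = 0.1866 at the highest). PCSK7, a proprotein convertase, was higher on arrays labelled ERBB2 than with EGF (0.57, adjusted p = 0.01968), a call that ended with equal array medians (0.39, adjusted p = 0.1044), without a variance trend, and without ERBB2 replicate 3 (0.50, adjusted p = 0.08444) or EGF replicate 2 (0.41, adjusted p = 0.1218). The other PCSK7 probe set tested had the opposite sign (-0.57, adjusted p = 0.1042).

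**Figure D4:**
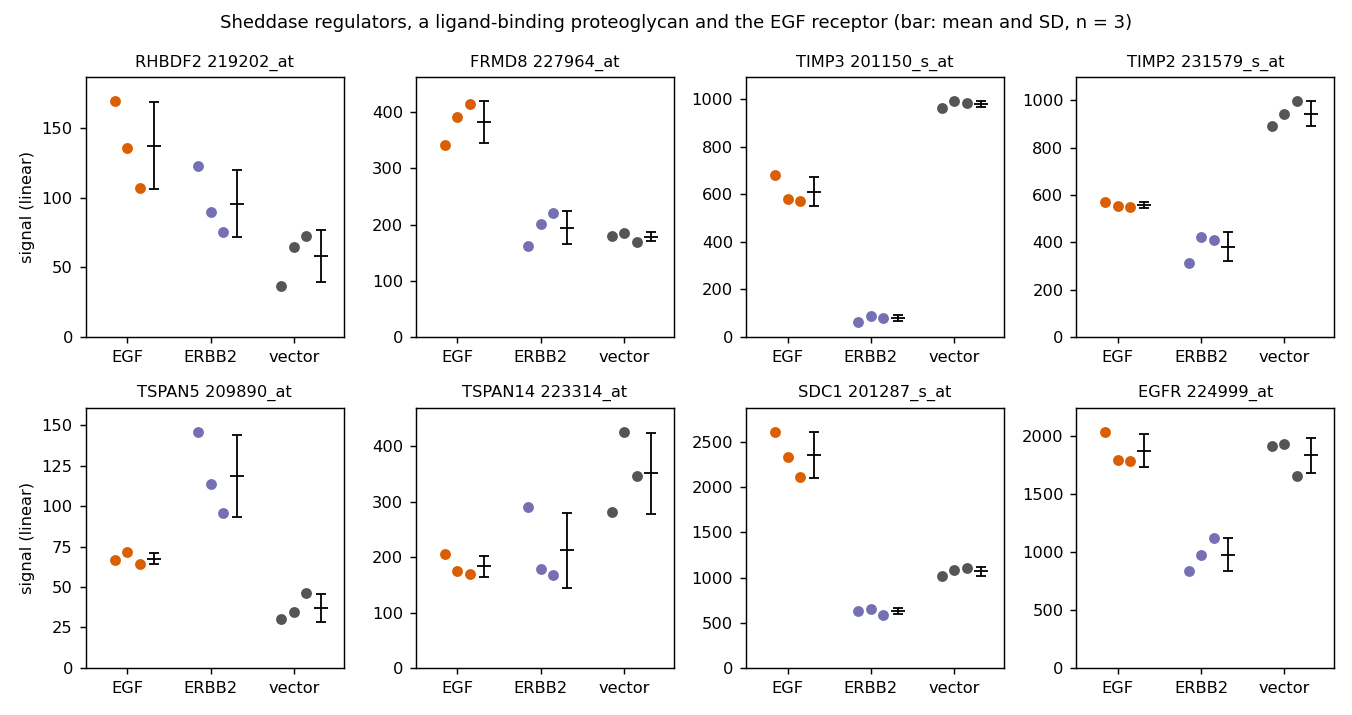
Signal (linear scale, from 0) on each array for 6 sheddase regulators, the ligand-binding proteoglycan SDC1 and EGFR, with 1 point per array for the EGF, ERBB2 and vector groups and a bar for the mean and SD (n = 3). TIMP3 reads 64.3 to 88.9 on arrays labelled ERBB2 and 964 to 991 on vector arrays, and FRMD8 and SDC1 are highest on the EGF arrays.

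By their brightest probe sets, other ADAM proteases were not called with EGF in any of 7 genes measured past the filter, the largest change being that of ADAM33 (-0.66, adjusted p = 0.08586). ADAM12 was called with EGF after quantile normalization and with equal medians, and ADAM9 with equal medians. On arrays labelled ERBB2 3 of the 7 were called higher than with vector and 0 lower, against 17.7% of all probe sets called higher and 21% called lower. ADAM12, which can also shed HB-EGF, read 69.7 ± 15.9 on arrays labelled ERBB2 and 33.0 ± 1.30 on vector arrays (0.79, adjusted p = 0.00324). ADAM8 was at 0.73 (adjusted p = 0.03577) and ADAM9 at 0.21 (adjusted p = 0.02919). Each of the last 2 calls ended under 6 alternatives, both of them without vector replicate 2 or 3 and without ERBB2 replicate 2 or 3 (ADAM8 at 0.50 to 0.68, ADAM9 at 0.16 to 0.22). A dimmer ADAM9 probe set averaged 639 on arrays labelled ERBB2 and 326 on vector arrays with no overlap (0.96 ± 0.15, adjusted p = 4.023e-05), and was also higher than with EGF, where it averaged 332 (0.92, adjusted p = 0.0001536). The last ADAM9 probe set (0.26, adjusted p = 0.4952) and the other ADAM8 probe set (0.17, adjusted p = 0.691) were not called against vector. By brightest probe sets, 0 of the 7 were called between arrays labelled ERBB2 and EGF arrays, against 23.8% of all probe sets. The largest of these changes was that of ADAM23 (-0.64, adjusted p = 0.1736). Of the other EGF family ligands, NRG2 and NRG4 passed the filter and neither was called in any comparison, with NRG2 at 0.56 on arrays labelled ERBB2 (adjusted p = 0.1147). The 1 probe set of EGF itself did not pass, with means of 0.957 with EGF, 5.60 on arrays labelled ERBB2 and 3.20 on vector arrays.

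By their brightest probe sets, genes that hold, carry or process the ligands were called lower on arrays labelled ERBB2 in 11 of 15 cases. They were called higher in 0 of 15, with a median of -0.62. Of all probe sets, dim ones included, 21% were called lower and 17.7% higher, with a median of -0.07. With EGF 4 were called higher and 6 lower, with a median of -0.20, against 12.9% called higher, 15.9% called lower and a median of -0.11 over all probe sets. SDC1, syndecan 1, a heparan sulphate proteoglycan that can bind HB-EGF, read 2615, 2338 and 2109 with EGF, 632, 656 and 589 on arrays labelled ERBB2, and 1016, 1086 and 1110 on vector arrays. It rose with EGF by 1.12 ± 0.09 (adjusted p = 6.42e-09) and fell by 0.76 on arrays labelled ERBB2 (adjusted p = 5.285e-07), so the 2 conditions lay on opposite sides of vector. CD44, a carrier of HB-EGF in its heparan sulphate form, had the same signs at 0.54 with EGF and -0.46 on arrays labelled ERBB2, with 3 of its 11 further probe sets of the other sign between the 2 conditions. SDC4 changed by 0.47 and -0.45. CD9, a tetraspanin that associates with the HB-EGF precursor, changed by -0.43 with EGF (adjusted p = 0.001229, but -0.13 and adjusted p = 0.4296 with equal array medians) and by -1.23 on arrays labelled ERBB2 (adjusted p = 1.35e-09). ZBTB16, a repressor reported to bind the HB-EGF tail fragment, changed by -1.33 and by -1.93. SDCBP, which encodes syntenin and binds pro-TGF-alpha, changed by -0.81 with EGF (adjusted p = 1.993e-08) and by -0.86 on arrays labelled ERBB2 (adjusted p = 3.196e-09). AP1M2, an epithelial sorting adaptor, changed by -0.24 with EGF (adjusted p = 0.3586) and by -1.03 on arrays labelled ERBB2 (adjusted p = 0.0001211). MMP7, a matrix protease that can process pro-HB-EGF, changed by -1.71 on arrays labelled ERBB2 (adjusted p = 8.063e-06) and by -0.85 with EGF (adjusted p = 0.0103). The MMP7 call with EGF ended without EGF replicate 3 (-0.72, adjusted p = 0.05998) and with a pseudocount of 1 (-1.204, adjusted p = 0.05086), and that between arrays labelled ERBB2 and EGF arrays (-0.86) ended without EGF replicate 1 (-0.68, adjusted p = 0.08475).

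The receptors of these ligands were measured by the same arrays. EGFR, which binds HB-EGF, epiregulin, TGF-alpha and betacellulin, read 833, 974 and 1119 on arrays labelled ERBB2, against 1913, 1932 and 1659 on vector arrays, a change of -0.91 ± 0.10 (adjusted p = 2.696e-07). The change with EGF by this probe set was 0.03 (adjusted p = 0.8556), whereas each of the 6 further EGFR probe sets tested had a negative one, and 2 of these were called. With equal array medians the brightest EGFR probe set was called higher with EGF. ERBB3, a receptor of neuregulin 1, changed by -1.44 with EGF (adjusted p = 6.812e-06) and by -0.64 on arrays labelled ERBB2 (adjusted p = 0.0106), and that second call ended without vector replicate 1 (-0.53, adjusted p = 0.06136). Of the 3 further ERBB3 probe sets tested, 1 was called lower with EGF and 1 had the other sign, and on arrays labelled ERBB2 0 were called against vector and 2 had the other sign. The brightest ERBB2 probe set changed by -0.65 with EGF (adjusted p = 0.01809), a call that ended with equal medians (-0.38, adjusted p = 0.1617) and without vector replicate 1 or 2 or EGF replicate 2 (-0.59 to -0.49). Its change of -0.71 on arrays labelled ERBB2 (adjusted p = 0.006756) lost its call without vector replicate 2 (-0.55, adjusted p = 0.05082) or ERBB2 replicate 2 (-0.54, adjusted p = 0.05209). The 2 further ERBB2 probe sets tested both had the other sign on arrays labelled ERBB2 against vector, and 1 of them was called higher. With EGF 1 of these 2 had the other sign and 0 were called. No ERBB4 probe set passed the filter, and their group means were at most 11.8.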

How the data were processed

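RNA of 9 MCF10A samples was measured on 1-colour Affymetrix arrays, grouped and numbered by their titles. The deposited values are linear signal intensities, made with MAS5 by the authors per the submitters' processing notes. Its settings are not given in the sources. The trimmed mean was 100.03 on all arrays, so scaling can hide part of a change shared by many genes. No detection calls were used, so low signals may or may not exceed background.

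The 62 control probe sets were left out, and those with a mean log2(signal + 16) above the 40th percentile, a signal of about 10.6, were kept. limma 3.58.1 in R 4.3.3 fitted 1 model of group means over all 9 arrays (eBayes with a variance trend, 6 residual degrees of freedom, Benjamini-Hochberg over 32768 probe sets). The fitting code was tested on simulated data. For 1 probe set alone, the smallest exact permutation p of 3 against 3 arrays is 0.1. The number of arrays limits the precision.

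Of the probe sets, 41091 had 1 gene symbol in the annotation, 1801 had more and 11721 had no symbol. RefSeq promoter windows were read for 8 of the 9 members. Protein sequences were not used here. The members, lists, tests and alternatives were chosen with earlier results of these data known. Genes named are all members, the ERBB receptors, DUSP6 and EGR1, up to 4 called genes per list and comparison with the largest change or else the largest one, and the 5 most alike genes per called member. Values of these genes in comparisons outside that rule, and of the EGF gene, the markers and further probe sets, were added after their values were seen. The replicate numbers did not pair the arrays (correlations of deviations between -0.030 and 0.019).

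The alternatives were pseudocounts of 1 and 64, a filter at the 60th percentile or none, quantile scaling, equal array medians, no variance trend, array weights, a fit of only 2 groups, a replicate block, each array left out, and the mean of a gene's probe sets. For the other genes named and the members' further probe sets they were added after the data were seen.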

Additional observations from a re-analysis of the deposited data

Results flagged for a closer look

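Member probe sets left out by the filter were searched for EGF or ERBB2 arrays that all exceeded every vector array. This search could find only rises, and it found the NRG1 probe sets 206343_s_at and 208231_at. The probe set 206343_s_at averaged 25.8 with EGF, against 6.34 on arrays labelled ERBB2 and 1.41 on vector arrays, and all 3 EGF arrays (19.3 to 32.6) exceeded all others, the highest of which was 11.8. The probe set 208231_at averaged 5.94 with EGF and 7.77 on arrays labelled ERBB2, against 1.12 on vector arrays, with single arrays at 1.496 and 1.46 close to the highest vector array at 1.42. The NRG1 probe set 206237_s_at, also left out, went the other way. It read 1.15, 2.76 and 0.687 with EGF, all below 3.45, 3.93 and 4.58 on vector arrays. How often low probe sets separate in this way was not counted. These differences were not tested, and it is unknown whether these signals exceed background.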

How the results depend on the processing

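The calls of HBEGF, EREG and TGFA with EGF, and between arrays labelled ERBB2 and EGF arrays, held under 20 alternatives each, apart from TGFA with the mean of its probe sets. With EGF the count of genes called higher was 5 of 7 with equal array medians, against 3. It was 2 when a gene's probe sets were averaged. On arrays labelled ERBB2 against vector the 1 gene called higher became 0 with a pseudocount of 64, without the filter and with only the arrays compared, and 0 to 1 when single arrays were left out. Without a variance trend the count stayed at 1, but HBEGF was not called (limma adjusted p = 0.05176) and NRG1 was (adjusted p = 0.03143). The 1 gene called lower became 0 with equal medians, without a variance trend and when a gene's probe sets were averaged. Between arrays labelled ERBB2 and EGF arrays 4 genes were lower, and 2 when probe sets were averaged. Without a variance trend ADAM10 was not among the genes called there (adjusted p = 0.05446). In 22 cases a member's change turned its sign, and none of these values was called. With EGF, ADAM10 was at -0.00031 with quantile normalization and between -0.014 and 0.11 when single arrays were left out, and BTC between -0.083 and 0.20. On arrays labelled ERBB2 against vector, EREG was at 0.056 with quantile normalization, 0.046 with equal medians and between -0.080 and 0.044 when single arrays were left out, and TGFA at 0.021 with the mean of its probe sets. Between arrays labelled ERBB2 and EGF arrays, NRG1 was at -0.041 with quantile normalization, -0.064 with equal medians and between -0.038 and 0.12 when single arrays were left out, and ADAM17 at 0.0024 and, without single arrays, between -0.15 and 0.039. With the replicate block the counts of genes called were unchanged, at 3 higher with EGF, 1 higher and 1 lower on arrays labelled ERBB2, and 4 lower between arrays labelled ERBB2 and EGF arrays. The replicate block changed no member's call. BTC and NRG1 lay near the filter and gave no value with a filter at the 60th percentile. The replicate numbers did not pair the arrays.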
